A study of Mus musculus with 20 samples.

Results

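Fgf21 and Gdf15 encode hormones that the liver releases under stress, and Klb and Fgfr4 encode the co-receptor and receptor through which hormones of the FGF family act on hepatocytes. These 4 genes, chosen by symbol for those roles with earlier results of these data known, are 4 of the 38784 gene symbols in the table. Their values are described in livers of 10 FVB/N mice, 6 to 8 weeks old at the start. Each mouse received siRNA in lipid nanoparticles into the tail vein, at a dose of 0.5 mg/kg and with 1 injection in 5 days. The groups were Eif3m siRNA for 9 days (3 mice), control siRNA for 9 days (3 mice), Eif3m siRNA for 13 days (2 mice) and control siRNA for 13 days (2 mice). The control siRNA was a scrambled luciferase sequence, and all mice received nanoparticles. RNA and ribosome footprints, the stretches of mRNA covered by translating ribosomes, were sequenced from each liver, which gave 20 libraries.

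FGF21 is a circulating member of the FGF family that acts on fat and brain through FGF receptors joined to the co-receptor β-Klotho, the product of Klb. In hepatocytes β-Klotho works with FGFR4, which receives the gut hormone FGF15 (FGF19 in humans) and represses bile acid synthesis. GDF15 is a distant member of the TGF-β family that curbs appetite through its receptor GFRAL and the co-receptor RET in the hindbrain. Both hormone genes are known targets of ATF4 and CHOP (the product of Ddit3), transcription factors of the integrated stress response, which kinases of eIF2α set off. Eif3m encodes a subunit of the translation initiation factor eIF3.

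Since both hormone genes moved in the livers, the stretches before their transcription starts are shown with motifs that stress-responsive and nutrient-responsive factors are known to bind. The 250 bases upstream are taken from RefSeq on GRCm38.p6, on the strand of the gene, and capitals mark motif matches.
Fgf21, chr7:45615491-45615740, minus strand: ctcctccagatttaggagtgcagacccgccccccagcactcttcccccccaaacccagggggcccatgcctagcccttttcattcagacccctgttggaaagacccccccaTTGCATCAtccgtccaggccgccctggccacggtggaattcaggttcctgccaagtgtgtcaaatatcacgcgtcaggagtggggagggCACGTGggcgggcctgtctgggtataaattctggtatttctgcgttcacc
Gdf15, chr8:70632457-70632706, minus strand: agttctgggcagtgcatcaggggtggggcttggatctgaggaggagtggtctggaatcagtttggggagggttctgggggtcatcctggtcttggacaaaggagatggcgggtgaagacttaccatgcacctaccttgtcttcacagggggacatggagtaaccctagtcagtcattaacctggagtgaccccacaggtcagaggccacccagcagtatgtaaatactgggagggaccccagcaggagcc
The 3 motifs were searched on both strands: TGATGNAA, the C/EBP-ATF composite element that ATF4 and CHOP can bind, the E-box CACGTG, and the cAMP response element TGACGTCA. The Fgf21 window held 1 composite element, read as TTGCATCA on the printed strand and beginning 139 bases before the start, and 1 E-box 50 bases before it. The printed Gdf15 window held none of the 3 motifs. A second Gdf15 start in RefSeq had an E-box 83 bases before it, and the windows of Klb, on chromosome 5, and Fgfr4, on chromosome 13, held no match. Of 32851 windows of this length, 3.45% held the composite element, 6.02% the E-box and 1.55% the cAMP response element. A match describes letters in a window and is no measurement of binding.

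Library totals in day 9 RNA were 34746050 to 39016524 counts after Eif3m siRNA and 27366965 to 37757684 after control siRNA, and in day 13 RNA 4964912 to 19834949 after Eif3m siRNA and 24311802 to 26401320 after control siRNA. Footprint libraries were shallower, with totals of 4502229 to 6160993 counts after Eif3m siRNA and 7036106 to 7689829 after control siRNA at day 9, and 1635290 to 6519799 after Eif3m siRNA and 1974248 to 2124245 after control siRNA at day 13. Eif3m itself, the target of the siRNA, averaged 6.17 ± 0.550 CPM in footprints of Eif3m siRNA livers and 76.0 ± 2.55 CPM in controls at day 9 (SD, n = 3 each), and 4.09 ± 2.31 CPM in Eif3m siRNA livers and 77.7 ± 1.59 CPM in controls at day 13 (SD, n = 2 each). Its RNA was likewise lower in every Eif3m siRNA liver, with log2 changes of -3.27 at day 9 and -4.01 at day 13. CPM are expected counts scaled to a library of 1000000 counts, after TMM scaling, a change is Eif3m siRNA over control siRNA on the log2 scale with its SE, and calls are edgeR quasi-likelihood tests adjusted over all genes at 0.05. The labels separate the mice but say nothing of litters or days of injection, so p-values measure the spread between these livers. All values come from whole liver, in which fewer cells of a type and less RNA per cell cannot be told apart. Where groups are said not to overlap, how many of all genes separate in that way was not counted. Such a separation describes these livers and is no test.

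Fgf21 rose in both RNA and footprints at day 9. Its footprints were 2.95, 4.14 and 4.95 CPM in the Eif3m siRNA livers, against 0.451, 0.414 and 0.224 CPM in the control livers. All 3 Eif3m siRNA livers lay above all 3 controls, whose values rest on 1.5 to 3 counts each. The means were 4.01 ± 1.01 CPM in Eif3m siRNA livers and 0.363 ± 0.122 CPM in controls (SD, n = 3 each), a log2 change of 3.28 (SE 0.45, edgeR quasi-likelihood test, adjusted p = 6.24e-05). Pooled over each group, the footprint ratio was 10.5, with an exact 95% interval of 5.09 to 25.3 that covers counting error only. Fgf21 ranked 23 among the 835 genes called higher in footprints at day 9. It passed the footprint filter only through the Eif3m siRNA livers, where it was high. The call and the rank therefore describe a gene admitted by that group.

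In day 9 RNA, Fgf21 was at 2.96, 2.84 and 5.12 CPM in the Eif3m siRNA livers, against 0.806, 0.513 and 0.247 CPM in controls. Again the groups did not overlap, and the third Eif3m siRNA liver was the highest in both assays. The means were 3.64 ± 1.28 CPM in Eif3m siRNA livers and 0.522 ± 0.280 CPM in control livers (SD, n = 3 each). The log2 change was 2.81 (SE 0.43, edgeR quasi-likelihood test, adjusted p = 0.00320), from 450 counts in Eif3m siRNA livers against 51 in controls, and the gene ranked 17 of 407 called rises.

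At day 13 the Fgf21 footprints stood at 2.58 and 2.12 CPM in the Eif3m siRNA livers, against 0.580 and 0 CPM in controls. The groups did not overlap, but the Eif3m siRNA livers had 20 counts in all and the controls 1, so the ratio of 7.95 has a counting interval of 1.27 to 329. The log2 change of 2.89 (SE 1.02) did not pass the edgeR quasi-likelihood test (adjusted p = 0.0720). It passed with library totals in place of TMM scaling (adjusted p = 0.0272), and leaving out 1 library moved it between 1.89 and 6.63. Day 13 Fgf21 RNA was at 0.147 and 0.0940 CPM in Eif3m siRNA livers, against 0.119 and 0.0242 CPM in controls, which is 3 counts in each group. The log2 change of 0.82 (SE 1.67, edgeR adjusted p = 0.786) therefore has no resolution at this depth, and its pooled ratio of 1.87 has an interval of 0.250 to 13.9.

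**Figure D1:**
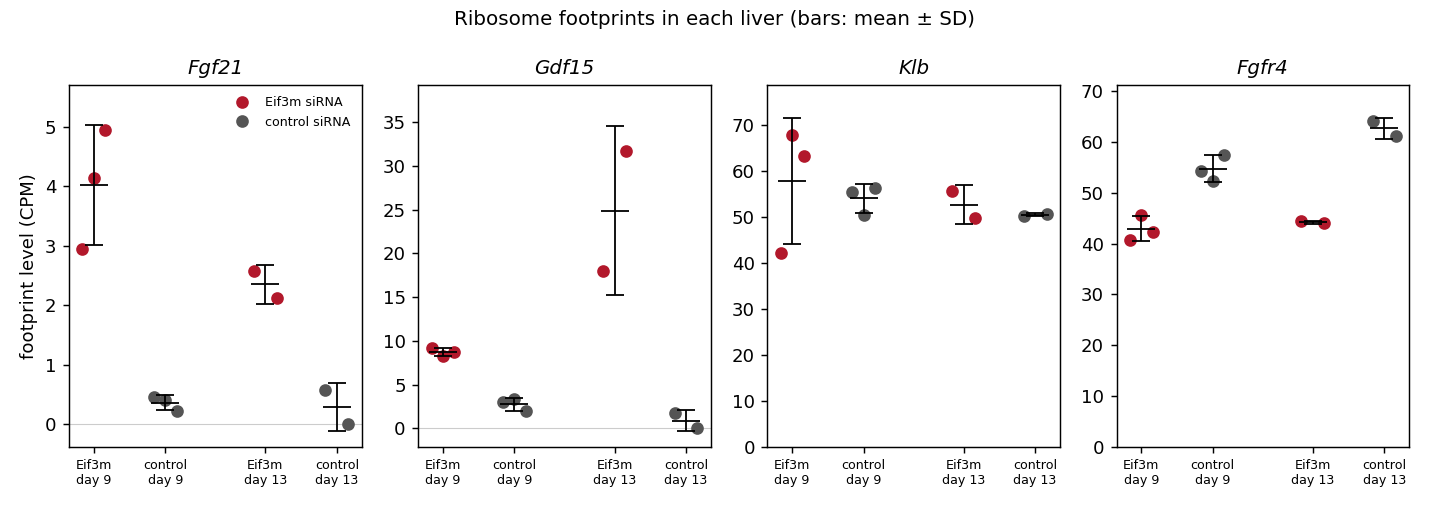
Footprint level in CPM (vertical axis, from 0) of each liver for Fgf21, Gdf15, Klb and Fgfr4, by siRNA and day, with 1 point per liver and bars for mean ± SD. Fgf21 and Gdf15 lay higher in every Eif3m siRNA liver (red) than in every control (grey) of the same day, with Gdf15 at 18.04 and 31.8 CPM at day 13, while Klb overlapped and Fgfr4 lay lower.

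Gdf15 rose at both days in footprints. At day 9 its footprints were 9.15, 8.28 and 8.77 CPM in the Eif3m siRNA livers, against 3.01, 3.31 and 1.94 CPM in the control livers. The Eif3m siRNA livers were close to each other and all above the controls, with means of 8.74 ± 0.438 CPM in Eif3m siRNA livers and 2.75 ± 0.717 CPM in controls (SD, n = 3 each). The log2 change was 1.65 (SE 0.29, edgeR quasi-likelihood test, adjusted p = 6.46e-04), and the pooled ratio 3.14 (interval 2.31 to 4.33, from 159 counts in Eif3m siRNA livers and 57 in controls). In day 9 RNA, Gdf15 was at 5.88, 8.60 and 9.43 CPM in the Eif3m siRNA livers, against 2.56, 2.59 and 3.02 CPM in controls. These groups did not overlap either, and the log2 change was 1.55 (SE 0.25, edgeR adjusted p = 0.00534).

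At day 13 the Gdf15 footprints were 18.04 and 31.8 CPM in the Eif3m siRNA livers, against 1.74 and 0 CPM in the control livers. The means were 24.9 ± 9.70 CPM in Eif3m siRNA livers and 0.870 ± 1.23 CPM in controls (SD, n = 2 each). The log2 change was 4.95 (SE 0.56, edgeR quasi-likelihood test, adjusted p = 1.12e-05), rank 9 of the 748 genes called higher. The pooled ratio was 35.0, with a counting interval of 11.8 to 171, with 264 counts in Eif3m siRNA livers and 3 in controls. Its size depends on those controls: the log2 change was 3.91 without control replicate 2 and 10.2 without control replicate 1, which left a control at 0. The call was kept in both cases.

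Gdf15 RNA at day 13 was at 0.176 and 0.752 CPM in the Eif3m siRNA livers and at 0 in both control livers. Against a floor of 3 counts over the control group, its 7 counts in the Eif3m siRNA livers gave a ratio of 4.36. That ratio leaves out counting error in the 7 counts, so Gdf15 RNA may lie less far above the floor. The edgeR test called it (adjusted p = 0.0276), but the call was lost when any of 3 libraries was left out, namely control replicate 1 (adjusted p = 0.0733), control replicate 2 (0.0561) or Eif3m siRNA replicate 2 (0.103).

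**Figure D2:**
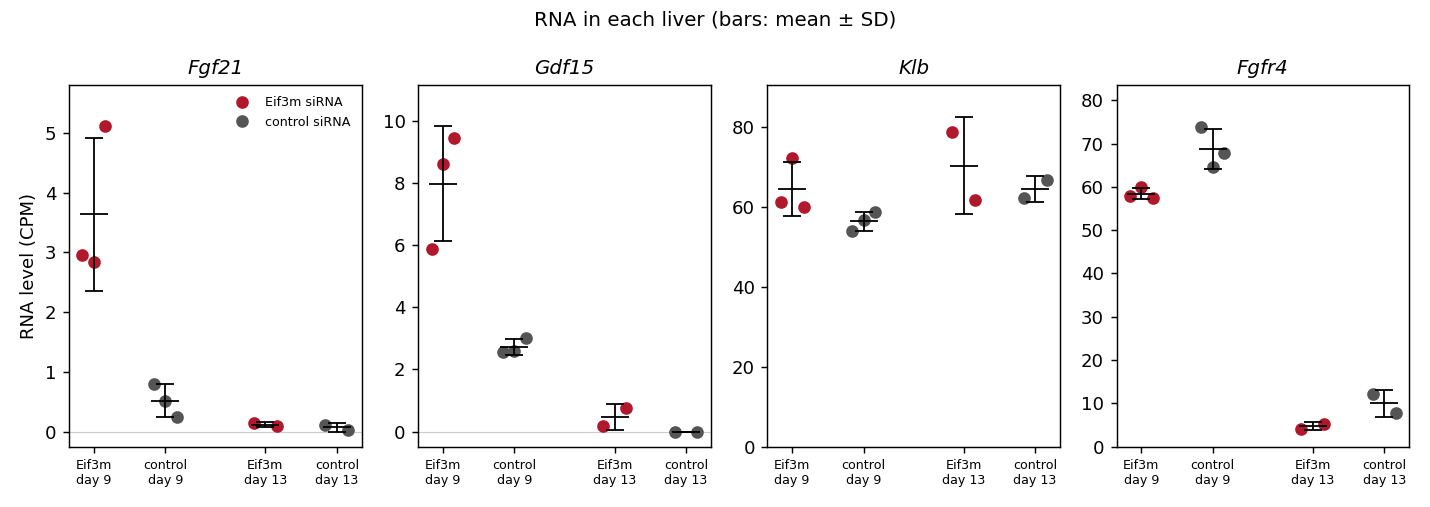
RNA level in CPM (vertical axis, from 0) of each liver for the 4 genes, by siRNA (Eif3m red, control grey) and day, with 1 point per liver and bars for mean ± SD. Fgf21 and Gdf15 were higher after Eif3m siRNA at day 9, and at day 13 the RNA of Fgf21, Gdf15 and Fgfr4 was low in both groups while Klb was not.

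Among the 4 groups, the footprint levels of Fgf21 ran from Eif3m siRNA at day 9 (4.01 CPM) through Eif3m siRNA at day 13 (2.35 ± 0.324 CPM) to the controls at day 9 (0.363 CPM) and day 13 (0.290 ± 0.410 CPM). The control groups overlapped each other, and no other neighbours in this order did. For Gdf15 the order was Eif3m siRNA at day 13, Eif3m siRNA at day 9, control at day 9 and control at day 13, with no overlap between neighbours. The fit tested the change at day 13 minus the change at day 9 directly. Each day is also a separate set of mice and libraries, so neither this order nor this difference can be assigned to time. In footprints that difference was 3.30 for Gdf15 (SE 0.74, edgeR quasi-likelihood test, adjusted p = 0.0411), the largest among the 27 genes with a called upward difference. The call depended on single libraries: the adjusted p lay between 0.0781 and 0.362 when any of 5 of the 10 footprint libraries was left out (day 9 control replicates 1 and 2, day 9 Eif3m siRNA replicate 3, and replicate 2 of both day 13 groups), and at 0.0962 with a replicate block. For Fgf21 the difference was -0.40 (SE 1.66, adjusted p = 0.960), an SE too wide to set the 2 days apart or together. In RNA neither hormone gene passed this test, with 4.71 (SE 1.88, edgeR adjusted p = 0.219) for Gdf15 and -1.98 (SE 1.92, adjusted p = 0.628) for Fgf21.

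Klb, the co-receptor, did not pass in any comparison. Its footprints at day 9 were 42.1, 67.6 and 63.2 CPM in Eif3m siRNA livers, against 55.4, 50.3 and 56.2 CPM in controls, with the lowest and the highest values both after Eif3m siRNA. The log2 change was 0.10 (SE 0.15, edgeR adjusted p = 0.707). At day 13 they were 55.5 and 49.6 CPM in Eif3m siRNA livers, against 50.2 and 50.6 CPM in controls, a log2 change of 0.05 (SE 0.21, edgeR adjusted p = 0.921). Klb RNA was at 61.3, 72.3 and 59.9 CPM in Eif3m siRNA livers and 54.0, 56.7 and 58.7 CPM in control livers at day 9. Those RNA values did not overlap, but the log2 change of 0.19 (SE 0.13) did not pass (edgeR adjusted p = 0.451). At day 13 Klb RNA was at 78.9 and 61.9 CPM in Eif3m siRNA livers and 62.3 and 66.8 CPM in controls, and the groups overlapped (log2 change 0.13, SE 0.16, edgeR adjusted p = 0.623). The footprints of all 4 groups overlapped within the range of the day 9 Eif3m siRNA livers.

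On the TMM scale Fgfr4, the receptor, lay lower in every Eif3m siRNA liver than in every control of the same day, in both assays. With library totals the day 9 groups overlapped in both assays. There the highest Eif3m siRNA livers were at 51.8 CPM in footprints and 71.0 CPM in RNA, and the lowest controls at 49.3 and 66.7 CPM. How many of all genes separate in this way was not counted. After TMM scaling, Fgfr4 footprints were 40.8, 45.6 and 42.3 CPM in Eif3m siRNA livers, against 54.4, 52.2 and 57.5 CPM in controls at day 9. The log2 change of -0.35 (SE 0.12) missed the threshold (edgeR adjusted p = 0.0612), and came to -0.11 with library totals in place of TMM scaling. At day 13 the footprints were 44.4 and 44.0 CPM in Eif3m siRNA livers, against 64.1 and 61.2 CPM in controls, a log2 change of -0.50 (SE 0.17, edgeR adjusted p = 0.0564). That value stood at the border of the call, since the adjusted p was 0.0482 when only genes averaging 5 CPM or more were tested, 0.0446 with day 13 fitted alone and 0.0362 without day 9 Eif3m siRNA replicate 1. With library totals the day 13 change shrank to -0.17 (adjusted p = 0.532). In order of level the groups were control at day 13 (62.6 CPM), control at day 9 (54.7 CPM), Eif3m siRNA at day 13 (44.2 CPM) and Eif3m siRNA at day 9 (42.9 CPM), and only the last pair overlapped.

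Fgfr4 RNA passed the test only at day 13. There it was at 4.10 and 5.36 CPM in the Eif3m siRNA livers, against 12.3 and 7.86 CPM in controls, with no overlap. The log2 change was -1.15 (SE 0.23, edgeR quasi-likelihood test, adjusted p = 0.00626), and the pooled ratio 0.436 (interval 0.346 to 0.544, from 98 counts in Eif3m siRNA livers and 420 in controls). The call was lost with day 13 fitted alone (adjusted p = 0.130) and without Eif3m siRNA replicate 1 (adjusted p = 0.0946). At day 9 the RNA was at 57.9, 59.9 and 57.5 CPM in Eif3m siRNA livers, against 73.8, 64.6 and 67.8 CPM in controls, and the log2 change of -0.23 (SE 0.15) did not pass (edgeR adjusted p = 0.422). The difference between the days, -0.92 (SE 0.28), did not pass either (edgeR adjusted p = 0.112). It passed without day 13 control replicate 2 (-1.23, adjusted p = 0.00427) and with no filter on low counts (adjusted p = 0.0479).

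**Figure D3:**
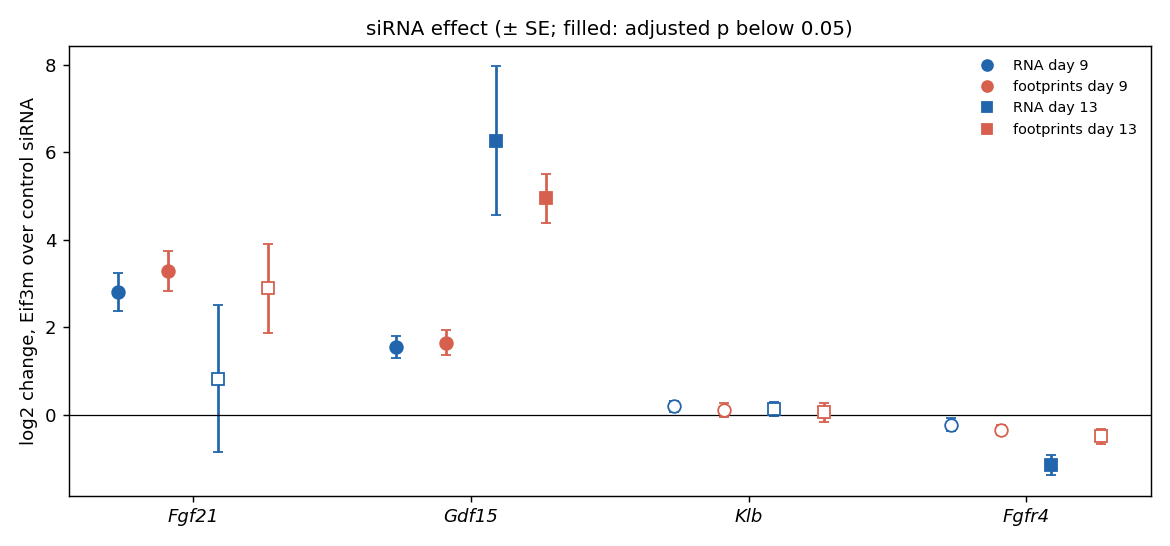
Log2 change of Eif3m over control siRNA (vertical axis) with its SE for each of the 4 genes, in RNA and footprints at day 9 and day 13; filled symbols have an edgeR adjusted p below 0.05. Fgf21 and Gdf15 stood above 0 with 6 of their 8 values filled, Klb lay close to 0, and Fgfr4 lay below 0 with only day 13 RNA filled.

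Counts of calls among the 4 genes are given beside the share of all genes called. The 4 were chosen with earlier results of these data known, so these shares are context and no test of enrichment. At day 9, 2 of the 4 rose in footprints, where 6.84% of 12213 genes were called higher, and 0 fell, where 7.90% were called lower. At that day, 2 of the 4 rose in RNA, where 2.48% of 16444 genes were called higher, and 0 fell, against 3.19%. At day 13, 1 rose and 0 fell in footprints, against 6.12% and 6.26% of all genes, 1 rose in RNA against 6.09%, and 1 fell in RNA against 9.87%. The difference between the days was called upward for 1 of the 4 and downward for 0 in footprints, against 0.221% and 0.598% of all genes, and for 0 of the 4 in RNA by edgeR, against 1.23% of all genes in either direction. In RNA, 2 of the 4 had an unadjusted edgeR p below 0.05 for that difference, as did 2920 of 16444 genes. DESeq2 also called 0 of the 4 for the RNA difference, where it called 752 genes in all.

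Low day 13 RNA was a property of some of these genes in both siRNA groups. Fgfr4 RNA averaged 10.1 ± 3.11 CPM at day 13 and 68.7 ± 4.68 CPM at day 9 in control livers, a ratio of 0.146, while its control footprints averaged 62.6 and 54.7 CPM. In control livers Fgf21 RNA averaged 0.0715 CPM at day 13 and 0.522 CPM at day 9, and Gdf15 RNA was at 0 at day 13 and at 2.72 CPM at day 9. Klb RNA did not share this, with 64.5 CPM at day 13 and 56.4 CPM at day 9. Of 5854 genes with at least 10 CPM in both assays of day 9 controls, 1237 (21.1%) had control RNA at least 4-fold lower at day 13. RNA libraries were made with KAPA mRNA capture at day 9 and NeoPrep at day 13, so kit and day cannot be told apart in RNA. Footprint libraries were made with ART-seq on both days. The mice of day 9 and day 13 carry different series of animal codes, and control footprint libraries were shallower at day 13. In both assays, day therefore cannot be told apart from the set of mice and libraries.

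This bears on footprints per RNA, the translational efficiency. Per liver, the log2 ratio of Gdf15 footprints to RNA (each with 0.5 CPM added) was 0.60, -0.05 and -0.10 after Eif3m siRNA and 0.20, 0.30 and -0.53 after control siRNA at day 9. At day 13 it was 4.78 and 4.69 after Eif3m siRNA, against 2.16 and 0 in controls. Both of those controls had 0 Gdf15 RNA counts, so their ratios are set by the added 0.5 CPM and restate the footprints. For Fgf21 the ratio was -0.01, 0.47 and -0.04 after Eif3m siRNA and -0.46, -0.15 and -0.04 after control siRNA at day 9, and at day 13 it was 2.25 and 2.14 after Eif3m siRNA, against 0.80 and -0.07 after control siRNA. Fgf21 RNA in the day 13 livers was at 0.0242 to 0.147 CPM, below the added 0.5 CPM. These day 13 ratios therefore also mainly restate the footprints.

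In the model over all 20 libraries, edgeR called 0 of the 4 genes for efficiency at either day. At day 9 no gene of 14236 was called (0%), with 692 at an unadjusted p below 0.05 (0 of the 4 genes), and limma on the ratios per liver also called 0. With the animal as a replicate block, 8 genes were called at day 9 and 12 at day 13, with 0 of the 4 among them. At day 13, 0.0211% of genes were called without it, with 1425 at an unadjusted p below 0.05 (1 of the 4), and limma called 117 genes, 2 of the 4 among them, from per-liver ratios that carry the added 0.5 CPM. The day 13 change was 2.12 for Fgf21 (SE 2.29, edgeR adjusted p = 0.832) and -0.56 for Gdf15 (SE 0.69, adjusted p = 0.868). limma gave 1.83 for Fgf21 (adjusted p = 0.0428) and 3.65 for Gdf15 (adjusted p = 0.0333), so the direction for Gdf15 depends on the method, where the RNA behind it is 7 counts in Eif3m siRNA livers and 0 in controls. At day 13 the efficiency change of Fgfr4 was 0.58 (SE 0.28, edgeR adjusted p = 0.495), and that of Klb -0.16 (SE 0.27, adjusted p = 0.924).

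The genes whose footprints followed each of the 4 most closely were found by Pearson's r over the 10 footprint libraries, on log2(CPM + 0.5), among the other genes averaging 5 CPM or more (8722 or 8723). The libraries share the siRNA groups, so a high r describes the pattern and carries no test. For Fgf21 they were Slc25a33, a mitochondrial pyrimidine nucleotide carrier (r = 0.976), Pa2g4 (0.966), Ogdh, a subunit of the 2-oxoglutarate dehydrogenase complex (0.955), Ifrd1 (0.951) and Trp53inp1, a target of p53 (0.950). For Gdf15 they were Smdt1, a subunit of the mitochondrial calcium uniporter (0.970), 1810009N02Rik (0.967), Aaas, a nucleoporin (0.967), Trib3, a pseudokinase induced by ATF4 and CHOP (0.963), and Plk2, a polo-like kinase (0.960).

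Klb moved most closely with Xpo1, the exportin of proteins from the nucleus (0.956), Rab11a, a GTPase of recycling endosomes (0.947), Etf1, the termination factor eRF1 (0.939), Orc3, of the origin recognition complex (0.933) and Eif2s2, the β subunit of eIF2 (0.930). For Fgfr4 the nearest were Tars, the threonyl-tRNA synthetase (0.959), Acat2, an acetyl-CoA acetyltransferase (0.957), Ces1c, a carboxylesterase (0.954), Hacl1, an enzyme of peroxisomal α-oxidation (0.952), and C1galt1 (0.950). Between the 4 genes, r was 0.813 for Fgf21 and Gdf15, -0.887 for Fgf21 and Fgfr4, and -0.846 for Gdf15 and Fgfr4. Klb was near 0 with Gdf15 (0.0918) and Fgfr4 (-0.0784), and at 0.313 with Fgf21. All these r values are on the TMM scale and were not computed with library totals. On that other scale the Fgfr4 footprint change shrank to -0.11 at day 9 and -0.17 at day 13.

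The remaining genes of the FGF and GDF15 pathways were read from footprints, by the same fit. Library totals in place of TMM scaling shift the median change of all genes from 0.02 to 0.25 at day 9 and to 0.34 at day 13, so values on that scale are given where they change a call. The counts below stand beside 6.84% of all genes called higher and 7.90% called lower at day 9, and 6.12% and 6.26% at day 13. Those shares hold for TMM scaling only. With library totals, 2753 of 12213 genes were called at day 9, 2302 of them higher, and 2358 at day 13, 2007 of them higher. DESeq2 called 1261 genes at day 9, 558 of them higher, and 1262 at day 13, 581 of them higher. Of 9 FGF ligands, only Fgf21 and Fgf1 had enough footprints to be tested, Fgf21 through its Eif3m siRNA livers alone. Fgf1, a ligand that acts locally, moved the other way from Fgf21. It averaged 6.18 CPM in Eif3m siRNA livers and 12.0 CPM in controls at day 9 (log2 change -0.996, SE 0.27, edgeR adjusted p = 0.0172), and 3.27 CPM in Eif3m siRNA livers and 8.73 CPM in controls at day 13 (-1.60, SE 0.51, adjusted p = 0.0446, or 0.0815 with library totals).

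Of 7 FGF receptors and co-receptors, 6 were tested and edgeR called 0 at either day, with 3 at an unadjusted p below 0.05 at day 9 and 1 at day 13, and DESeq2 called 0. Over all 12213 genes, 3522 had such a p at day 9 and 3084 at day 13. The median change of the 6 was -0.29 at day 9 and -0.46 at day 13, against 0.02 over all genes, and came to -0.05 and -0.14 with library totals. Besides Fgfr4 and Klb, Fgfr2 had 27.8 CPM in Eif3m siRNA livers and 35.0 CPM in controls at day 9 (log2 change -0.34, SE 0.16, edgeR adjusted p = 0.169). Fgfr1, through which FGF21 acts in fat, was at 1.37 CPM in Eif3m siRNA livers and 1.20 CPM in controls.

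Downstream of the receptors, 23 of 27 genes of FGF receptor signalling were tested. At day 9, edgeR called 3 of them lower and 0 higher: Egr1, an immediate early gene (log2 change -2.22, SE 0.57, adjusted p = 0.0488), Mapk3, the kinase ERK1 (-0.65, SE 0.20, adjusted p = 0.0308), and Plcg1 (-0.53, SE 0.15, adjusted p = 0.0250). With library totals these 3 calls were lost and 3 others, Hras, Map2k1 and Map2k2, were called higher, so no direction holds for the group. At day 13 Map2k2, the kinase MEK2, was the only one called in edgeR, at 53.9 CPM in Eif3m siRNA livers and 32.3 CPM in controls (0.76, SE 0.19, adjusted p = 0.0133).

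Of 8 bile acid genes that FGFR4 signalling acts on or that act with it, 4 were called lower and 0 higher at day 9, and 2 lower and 0 higher at day 13 (2 and 2 lower with library totals). Slc10a1, the uptake transporter of bile acids, averaged 297 CPM in Eif3m siRNA livers and 502 CPM in controls at day 9 (log2 change -0.76, SE 0.13, edgeR adjusted p = 6.83e-04), and 239 CPM in Eif3m siRNA livers and 563 CPM in controls at day 13 (-1.24, SE 0.17, adjusted p = 6.60e-05). Cyp27a1, of the alternative pathway of synthesis, changed by -0.74 (SE 0.16, edgeR adjusted p = 0.00285) at day 9 and -1.02 (SE 0.20, adjusted p = 0.00170) at day 13. Nr0b2, the repressor SHP, was lower at day 9 (-1.07, SE 0.26, edgeR adjusted p = 0.0183, or 0.0560 with library totals) but not at day 13 (0.50, SE 0.34, adjusted p = 0.404). Abcb11, the bile salt export pump, was the fourth called at day 9 (-0.54, SE 0.16, edgeR adjusted p = 0.0329, or 0.172 with library totals). Cyp7a1, the rate-limiting enzyme that FGFR4 signalling represses, passed at neither day, with 96.5 CPM in Eif3m siRNA livers and 84.2 CPM in controls at day 9, and 74.6 CPM in Eif3m siRNA livers and 207 CPM in controls at day 13 (-1.49, SE 0.86, edgeR adjusted p = 0.350).

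On the GDF15 side, Gfral had 0 footprint counts in every library, and 5 of 7 genes of its receptor and processing were tested. Pcsk6, a proprotein convertase, was lower at day 9, with 45.7 CPM in Eif3m siRNA livers and 72.6 CPM in controls (log2 change -0.67, SE 0.15, edgeR adjusted p = 0.00366). Mmp14, a membrane metalloproteinase, was higher, with 42.1 CPM in Eif3m siRNA livers and 30.1 CPM in controls (0.49, SE 0.14, edgeR adjusted p = 0.0222), while DESeq2 called none of the list higher at that day. At day 13 edgeR and DESeq2 called 0 of the 5, and Furin, a convertase, passed at neither day (-0.40, SE 0.16, edgeR adjusted p = 0.0938 at day 9). Of 16 TGF-β family ligands, 10 were tested, and Gdf15 was the only one called higher at day 9, though Inhba, Inhbe, Bmp2 and Gdf2 were also called higher with library totals. At day 13 Gdf15 was again the only one called higher, while Inhbc (-0.84, SE 0.26, edgeR adjusted p = 0.0423) and Gdf10 (-0.97, SE 0.30, adjusted p = 0.0382) were called lower, 2 calls that library totals removed.

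Transcription factors known to act on Fgf21 or Gdf15 were all tested, 16 of 16, with 1 called higher and 3 lower at day 9 and 3 higher and 2 lower at day 13 (2 and 1, and 6 and 0, with library totals). The riser at both days was Ddit3, which encodes CHOP. Ddit3 footprints averaged 5.86 CPM in Eif3m siRNA livers and 0.475 CPM in controls at day 9 (log2 change 3.54, SE 0.42, edgeR adjusted p = 1.41e-05), and 12.04 CPM in Eif3m siRNA livers and 0.580 CPM in controls at day 13 (4.41, SE 0.69, adjusted p = 2.36e-04). Atf4 itself did not pass, with 12.1 CPM in Eif3m siRNA livers and 15.1 CPM in controls at day 9 (-0.31, SE 0.17, edgeR adjusted p = 0.257) and 15.2 CPM in Eif3m siRNA livers and 15.8 CPM in controls at day 13 (-0.01, SE 0.26, adjusted p = 0.994). Atf3 passed at day 13 (1.96, SE 0.46, edgeR adjusted p = 0.00688), and so did Nr1h2, the receptor LXRβ (1.22, SE 0.35, adjusted p = 0.0248). Mlxipl, the carbohydrate-responsive factor ChREBP that acts on Fgf21, was lower at day 9, with 42.5 CPM in Eif3m siRNA livers and 90.8 CPM in controls (-1.10, SE 0.15, edgeR adjusted p = 7.40e-05). Egr1, lower at day 9 as given above, averaged 33.4 CPM in Eif3m siRNA livers and 2.78 CPM in controls at day 13 (3.72, SE 1.12, edgeR adjusted p = 0.0872, or 0.0465 with library totals), and the change at day 13 minus that at day 9 was 5.94 (SE 1.22, edgeR adjusted p = 0.123).

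Of 20 further ATF4 target genes, which share Ddit3 and Atf3 with the factors above, 15 were tested: 5 were called higher and 1 lower at day 9, and 5 higher and 2 lower at day 13 (8 and 1, and 8 and 2, with library totals). The median change was 0.36 at day 9 and 0.46 at day 13, against 0.02 over all genes at both days. Atf5 averaged 341 CPM in Eif3m siRNA livers and 75.6 CPM in controls at day 9 (log2 change 2.18, SE 0.18, edgeR adjusted p = 7.16e-07) and 643 CPM in Eif3m siRNA livers and 89.2 CPM in controls at day 13 (2.85, SE 0.23, adjusted p = 8.49e-07). Trib3 averaged 47.2 CPM in Eif3m siRNA livers and 11.7 CPM in controls at day 9 (2.01, SE 0.35, edgeR adjusted p = 0.00584) and 93.7 CPM in Eif3m siRNA livers and 3.39 CPM in controls at day 13 (4.83, SE 0.64, adjusted p = 0.00180). Against them, Shmt2, a mitochondrial enzyme of serine metabolism, was lower at day 9 (-0.86, SE 0.14, edgeR adjusted p = 4.13e-04) and at day 13 (-1.13, SE 0.18, adjusted p = 3.61e-04). Ddit4 was lower at day 13 (-1.72, SE 0.38, edgeR adjusted p = 0.00471), and its change at day 13 minus that at day 9 was -2.37 (SE 0.46, edgeR adjusted p = 0.0167). The list therefore did not move as 1 block.

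Of 24 other liver hormones and secreted factors, 21 were tested: 5 rose and 3 fell at day 9, and 3 rose and 3 fell at day 13 (7 and 1, and 5 and 2, with library totals). Igfbp1, which binds insulin-like growth factors and is also induced in stress, had the largest change, 83.1 CPM in Eif3m siRNA livers and 8.50 CPM in controls at day 9 (log2 change 3.29, SE 0.38, edgeR adjusted p = 9.48e-04) and 98.5 CPM in Eif3m siRNA livers and 20.4 CPM in controls at day 13 (2.33, SE 0.49, adjusted p = 0.0193). Enho, which encodes adropin, was higher at day 9 (1.97, SE 0.34, edgeR adjusted p = 6.69e-04) but at -0.50 at day 13 (SE 0.45, adjusted p = 0.534). Agt, angiotensinogen, was lower at both days (-0.50, SE 0.12, edgeR adjusted p = 0.00602, and -1.07, SE 0.14, adjusted p = 6.38e-05), and Dpp4, a protease that inactivates hormones, was at -0.73 (SE 0.14, adjusted p = 9.97e-04) and -0.86 (SE 0.18, adjusted p = 0.00313). The call of Agt at day 9 was lost with library totals.

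**Figure D4:**
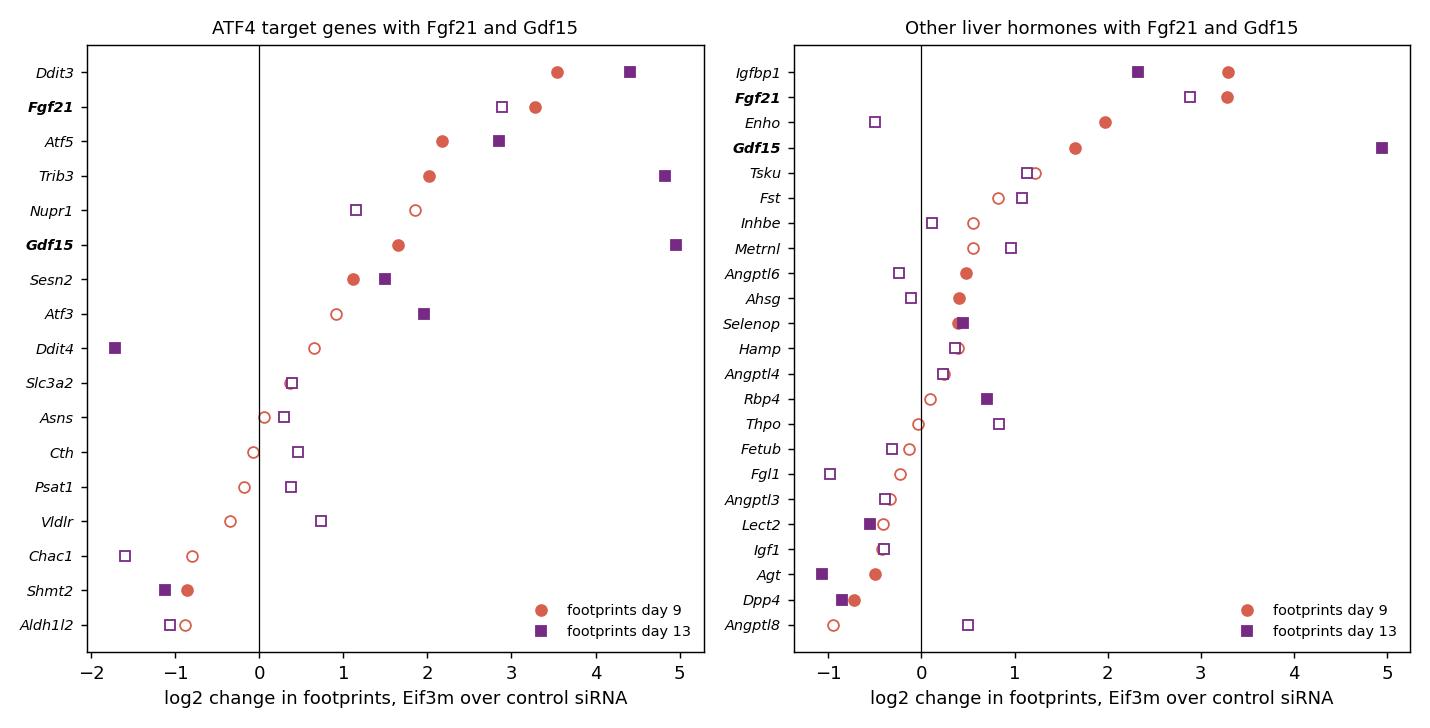
Log2 change in footprints (horizontal axis, Eif3m over control siRNA) of ATF4 target genes (left) and other liver hormones (right), with Fgf21 and Gdf15 in bold; circles are day 9, squares day 13, and filled symbols have an edgeR adjusted p below 0.05. Ddit3, Atf5 and Trib3 lay to the right of 0 at both days with the hormone genes, as did Igfbp1, while Shmt2, Agt and Dpp4 lay to the left.

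The hepatocyte markers Alb, Apoa1, Ttr, Serpina1c, Fabp1 and Cps1 were all detected in every group, as the liver label requires. Their summed footprints were 110210 to 134998 CPM in Eif3m siRNA livers and 174427 to 208495 CPM in controls at day 9, and 119548 to 150726 CPM in Eif3m siRNA livers and 241404 to 245807 CPM in controls at day 13, with 2 of 6 called lower at day 9 and 3 of 6 at day 13 (with library totals, 2 lower at day 9, and 1 lower and 1 higher at day 13). Markers of exocrine pancreas, which also makes Fgf21, summed to 9.23 to 12.5 CPM in Eif3m siRNA livers and 13.9 to 14.3 CPM in controls at day 9 over 9 markers, and 14.7 to 19.5 CPM in Eif3m siRNA livers and 17.9 to 28.6 CPM in controls at day 13. Of these 9 markers, 1, Cela1, had enough footprints to be tested, and it was not called at either day. In each group 3 to 4 of the 9 had 0 footprint counts, so the sums are no measure of pancreas. Markers of white fat, a site of Fgf21 and Klb, summed to at most 0.870 CPM of footprints in any library, with Lep and Retn at 0 throughout.

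Other cell types moved beside the hormone genes. The 8 Kupffer cell and macrophage markers summed to 401 to 470 CPM in Eif3m siRNA livers and 444 to 529 CPM in controls at day 9, with 1 higher and 3 lower, and to 214 to 265 CPM in Eif3m siRNA livers and 400 to 448 CPM in controls at day 13, with 0 higher and 4 lower. The 6 cholangiocyte markers summed to 56.4 to 63.8 CPM in Eif3m siRNA livers and 36.0 to 62.3 CPM in controls at day 9, with 0 of 4 tested called by edgeR or DESeq2, and to 60.3 to 78.1 CPM in Eif3m siRNA livers and 35.8 to 39.8 CPM in controls at day 13. At day 13 edgeR called 1 of 4, Sox9, higher, and DESeq2 called 2 of the 3 with an adjusted p higher. Stellate cell markers summed to 580 to 656 CPM in Eif3m siRNA livers and 434 to 497 CPM in controls at day 9, with 2 of 6 higher, but to 544 to 646 CPM in Eif3m siRNA livers and 795 to 825 CPM in controls at day 13, with 2 of 6 lower. Summed sinusoidal endothelial markers overlapped between the siRNA groups at both days, at 493 to 616 CPM in Eif3m siRNA livers and 481 to 519 CPM in controls at day 9, and 495 to 565 CPM in Eif3m siRNA livers and 536 to 541 CPM in controls at day 13. Of the 6, 1 was called higher at day 9, Lyve1 (log2 change 1.25, SE 0.20, edgeR adjusted p = 3.34e-04), and 0 were called at day 13. With library totals, counts of markers called higher and lower came to 3 and 3 at day 9 and 0 and 2 at day 13 for Kupffer cells, 4 and 0 and then 0 and 2 for stellate cells, 5 and 0 and then 1 and 0 for endothelium, and 1 and 0 and then 2 and 0 for cholangiocytes. Over all 12213 genes, library totals gave 2302 called higher at day 9 and 2007 at day 13. The part of these marker shifts in the changes of Fgf21, Gdf15 and Fgfr4 was not tested.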

How the data were processed

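RNA-seq and ribosome profiling were run on the livers of 10 mice (20 libraries). The deposited values are expected counts per gene symbol made by the authors: of the nonzero values 44.3% are not whole, and 100% lie within 0.01 of a multiple of 1/6. Per the submitters' processing notes, cutadapt, Bowtie and Bowtie2 were used. Their versions, the genome build and how reads were assigned were not given in the sources used here, so reads shared with another gene may be split. Per the labels' protocols, RNA came from ground liver with Qiagen RNeasy.

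Counts were rounded to whole numbers and fitted in R 4.3.3 with edgeR 4.0.16 (filterByExpr, TMM, robust quasi-likelihood F test, two-sided, Benjamini-Hochberg over all genes tested), each assay over its 4 groups so that both days share 1 spread. All 4 genes passed the filter in both assays. In footprints Fgf21 passed it only through the Eif3m siRNA livers, since its control livers held 0 to 3 counts each. An SE is the log2 change divided by the square root of F. Efficiency was tested in 1 model of 20 libraries as the change in footprints less that in RNA. Alternatives used DESeq2 1.42.0, limma 3.58.1, other scalings, filters and blocks, and each library left out. The scripts were tested on simulated counts. Replicates of a group correlated at 0.961 to 0.995 over 16 pairs and differed by more than counting noise. Same-numbered Eif3m and control mice did not deviate together (r -0.109 to 0.219). RNA and footprints of 1 mouse, paired by the animal code in the labels, did not reach 0.1 in every case (0.0940 to 0.373), and the block for the animal changed no call of the 4 genes.

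The 4 genes and all gene lists were chosen with earlier results of these data known. From each list the text names up to 4 genes called in footprints at either day, by size of change, with the 2 of highest footprint CPM where none was called. Atf4, Mlxipl, Shmt2, Ddit4, Cyp7a1, Furin, Fgfr1, Cela1 and genes whose calls a scaling changed were named after their values were seen. Promoter sequences are RefSeq's, on GRCm38.p6. No coding lengths were at hand, so levels of different genes are not compared. An exact test of 3 against 3 mice cannot go below a p of 0.1.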

Additional observations from a re-analysis of the deposited data

Results flagged for a closer look

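The change of Gdf15 in footprints differed between the days, which was tested directly in the model. Each day is also a separate set of mice and libraries, and time cannot be told apart from the set. The change at day 13 exceeded the change at day 9 by 3.30 on the log2 scale (SE 0.74, edgeR quasi-likelihood test, adjusted p = 0.0411), with 4.95 at day 13 and 1.65 at day 9. Both Eif3m siRNA livers of day 13 lay above all 3 of day 9, and both day 13 controls lay below all 3 day 9 controls. How many of all genes separate in this way was not counted, so this order is a description only. The call was lost without day 9 control replicate 1 (adjusted p = 0.0781), day 9 control replicate 2 (0.101), day 9 Eif3m siRNA replicate 3 (0.0818), day 13 control replicate 2 (a difference of 2.27, adjusted p = 0.299) or day 13 Eif3m siRNA replicate 2 (2.77, adjusted p = 0.362). Day 13 controls held 3 Gdf15 footprint counts in all.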

How the results depend on the processing

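The rises of Fgf21 and Gdf15 at day 9 in RNA and footprints, and of Gdf15 footprints at day 13, kept their calls under every alternative that gave a value. With library totals in place of TMM scaling, Fgf21 footprints at day 13 became a call (3.20), and Klb turned sign for the day difference in RNA (0.00107) and footprints (0.0372) and for efficiency at day 9 (0.00434) and day 13 (0.0414). Klb also turned sign for the RNA day difference with DESeq2 size factors (0.0430), a minimum mean of 5 CPM (0.0115) and DESeq2 (0.0462), and for the footprint day difference with no filter (0.0121); none of these is a call. With no filter the Fgfr4 RNA day difference became a call (-0.93). Fitting day 13 alone lost the Fgfr4 RNA call (-1.02), and the Fgfr4 footprint change became a call when fitted alone (-0.50) or at a mean of at least 5 CPM (-0.48). limma gave 1.83 for Fgf21 and 3.65, a reversal, for Gdf15 efficiency at day 13. The cause of these shifts was not tested. The replicate block lost the Gdf15 day difference in footprints (3.22, adjusted p = 0.0962) and changed no other call of the 4 genes. With it the day difference was called for 61 genes in RNA (202 without it) and 62 in footprints (100 without it).

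Leaving out 1 library each gave -3.64 to 4.45 for Fgf21, 5.49 to 7.49 for Gdf15, -0.0697 to 0.29 for Klb and -1.47 to -0.80 for Fgfr4 in day 13 RNA. For the RNA day difference it gave -6.45 to 1.64 for Fgf21, -0.26 to 0.11 for Klb and -1.23 to -0.57 for Fgfr4. In footprints Klb ranged from -0.0106 to 0.28 at day 9 and -0.00442 to 0.15 at day 13, and at day 13 Fgfr4 ranged from -0.53 to -0.47 and Fgf21 from 1.89 to 6.63. The footprint day difference ranged from -1.39 to 3.34 for Fgf21, 2.27 to 8.56 for Gdf15 and -0.23 to 0.0691 for Klb. Efficiency at day 9 ranged from -0.17 to 0.29 for Gdf15 and -0.24 to 0.0323 for Klb, and at day 13 from 1.81 to 5.99 for Fgf21, -1.66 to 6.27 for Gdf15 and -0.17 to 0.0338 for Klb. Over all alternatives the number of genes called ran from 292 to 3445 (932 as reported) for RNA and 1129 to 2753 (1800) for footprints at day 9, and from 969 to 4265 (2625) and 429 to 2358 (1513) at day 13. For the day difference it ran from 0 to 2065 (202) in RNA and 7 to 242 (100) in footprints, and for efficiency from 0 to 18 (0) at day 9 and 0 to 438 (3) at day 13.

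CPM from library totals moved 11 of the 32 group means by more than their SD. Fgf21 gave no value at a mean of at least 5 CPM, nor at day 13 with that day fitted alone, and DESeq2 gave no adjusted p for its day 13 footprints. Gdf15 RNA gave none under the same limits. The day 13 values of both hormone genes rest on 0 to 7 RNA counts a group and 0 to 3 footprint counts per control liver.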
